A study of Mus musculus with 12 samples.

Results

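Efferocytosis, the uptake of dying cells by phagocytes, was followed at the mRNA level in cardiac macrophages (Mφ) through 10 genes that encode its receptors, bridging molecules and an engulfment adaptor: Mertk, Axl, Tyro3, Gas6, Pros1, Mfge8, Stab1, Itgb5, Lrp1 and Elmo1. On build GRCm38, Gas6 lies on chromosome 8 (13465374 to 13494490), Axl on chromosome 7 (25757273 to 25788705) and Itgb5 on chromosome 16 (33829665 to 33949338), and Mertk and Tyro3 lie on chromosome 2. The genes were taken by name from the 24445 genes of the count files, and all 10 were found and were among the 14608 that passed the filter on low counts (Tyro3 at counts near 0). Cells were sorted as CD14+/CD64+ from hearts of adult male C57BL6/J mice, with 1 library per mouse. The control group (Ct) comprised 4 mice with a saline pump, whose infusion time the labels do not give. The early concentric hypertrophy group (ECH) comprised 4 mice infused for 14 days with isoproterenol, which activates β-adrenergic receptors, and the heart failure group (HF) 4 mice infused for 28 days. The dose was 30 mg/kg/day in both. All mice were of this strain and carried a pump, and the disease names stand for infusion times, since the labels give no cardiac measurement of the sequenced mice.

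Dying cells expose phosphatidylserine on their surface, and phagocytes recognise it either directly or through soluble bridging molecules. Gas6 links phosphatidylserine to the TAM receptor tyrosine kinases Tyro3, Axl and Mertk, protein S (Pros1) links it to Tyro3 and Mertk, and Mfge8 links it to the αv integrins. Engulfment then runs through adaptors such as Elmo1, which acts with Dock proteins on the small GTPase Rac. Resident cardiac Mφ use this machinery to clear dying cardiomyocytes and the debris that cardiomyocytes release.

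The libraries held between 88466559 and 111180291 counts. A list of 9 Mφ markers summed to between 25975 and 36848 CPM (counts relative to library size, after TMM scaling) in each of the 12 libraries, with no marker at 0, while lists of fibroblast, endothelial and cardiomyocyte markers reached at most 469, 107 and 239 CPM. Neutrophil markers reached 1457 CPM in Ct mouse 2, 1040 CPM in Ct mouse 3 and 1090 CPM in HF mouse 4, and at most 464 CPM elsewhere. Ct mouse 2 and HF mouse 1 had the fewest detected genes of their groups (14489 and 13600). Library numbers in the labels place Ct mice 1 to 4 and ECH mice 1 and 2 in 1 set and HF mice 1 to 4 and ECH mice 3 and 4 in another. Neither the labels nor the study states these sets, so they are inferred. No set held both Ct and HF mice. With the set as a covariate, HF and Ct are therefore compared only through the ECH mice of each set. In sorted bulk RNA, fewer cells of a type and less RNA per cell cannot be told apart.

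**Figure D1:**
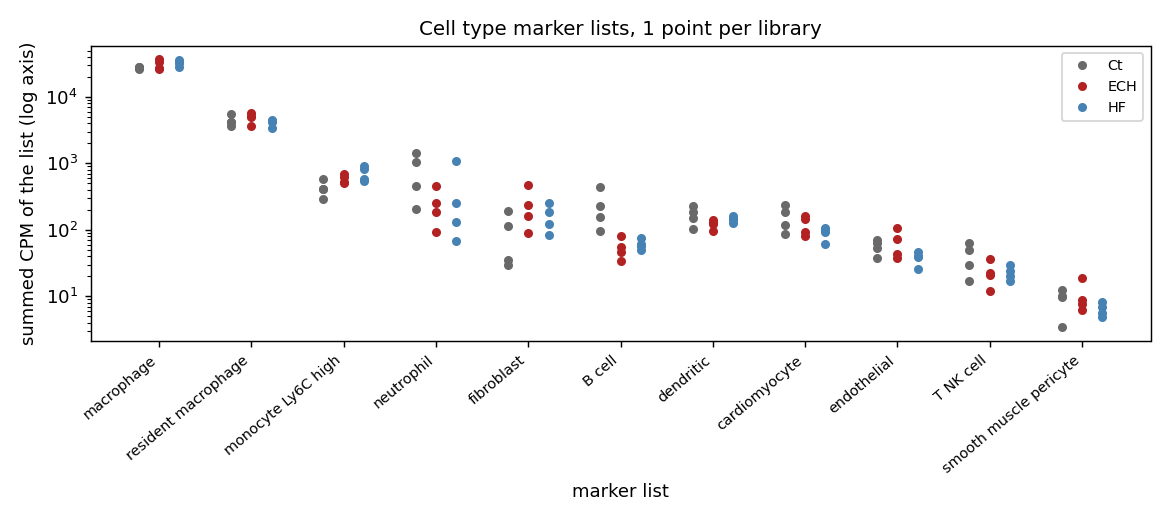
Summed level of each cell type marker list (CPM, log axis) with 1 point per library, grey for Ct, red for ECH and blue for HF. The Mφ list lies between 25975 and 36848 CPM in all libraries, above every other list.

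The 10 genes were expressed at widely different levels. Per kb of exon, Gas6 had the highest mean in Ct, at 355 ± 44.2 CPM per kb (SD, n = 4 mice, as for all such values below). Stab1 (97.3 ± 20.1), Itgb5 (96.1 ± 17.1), Pros1 (85.2 ± 37.3) and Axl (71.7 ± 14.6) followed in CPM per kb, and these neighbours lay within their SDs of each other. Mertk (27.1 ± 10.1) and Lrp1 (20.0 ± 2.08) were also within their spread in CPM per kb, and Mfge8 (13.9 ± 2.25) and Elmo1 (10.5 ± 2.94) came next. Tyro3 was at 0.0248 ± 0.0287 CPM per kb. With the longest transcript in place of all exons, the mean over the 12 libraries was 138.5 CPM per kb for Stab1 and 84.2 for Axl. It was 27.9 for Mfge8, 26.3 for Elmo1 and 24.6 for Lrp1, so the order among these lower genes depends on the length used. These means take in all groups, so the size of each shift cannot be read against the Ct means above. In ECH, the level of Mertk reached 73.0 ± 37.6 CPM per kb, next to Axl at 81.1 ± 12.5.

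**Figure D2:**
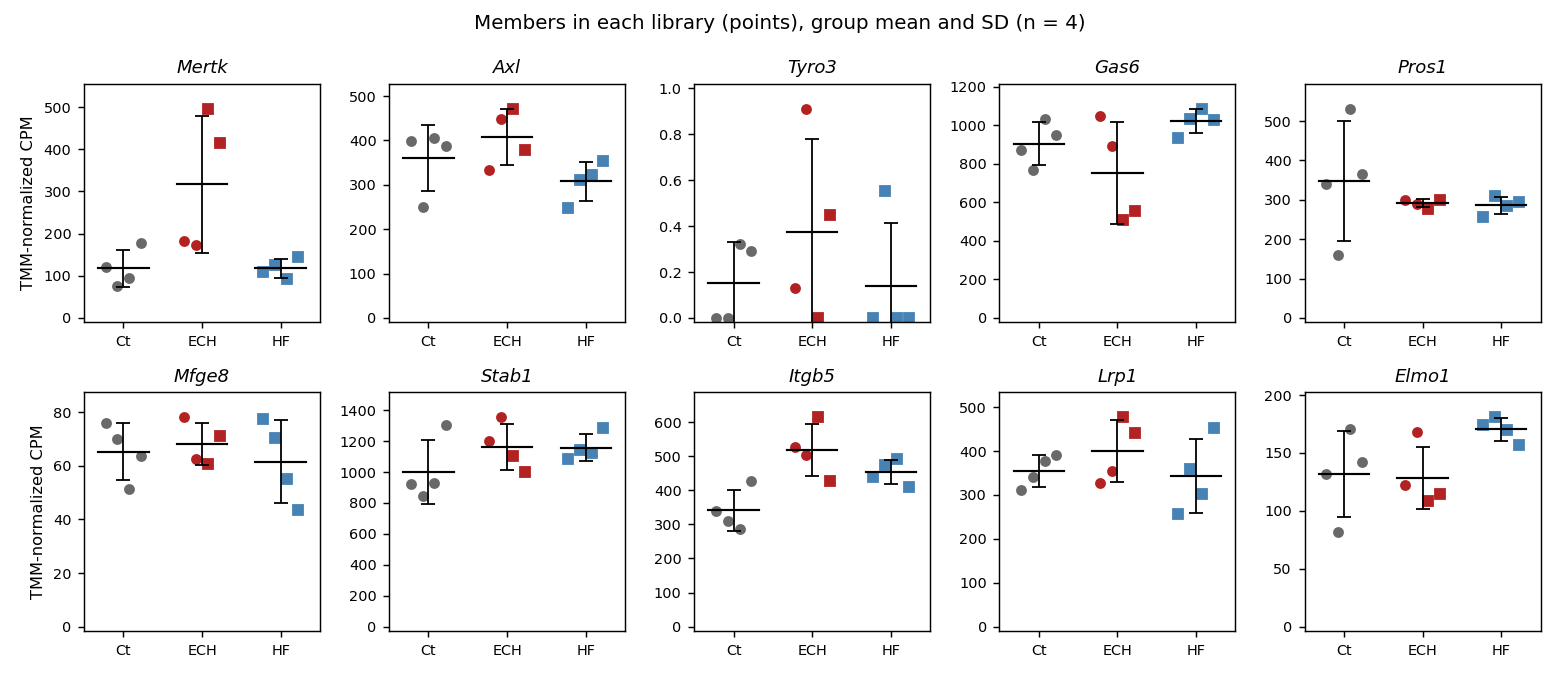
TMM-scaled CPM of each of the 10 genes in every library, for Ct, ECH and HF, with the group mean and SD (n = 4). Circles are libraries of the set that holds Ct and squares those of the set that holds HF. Mertk reaches 496 and 414 CPM in ECH mice 3 and 4, where Gas6 is at 509 and 552 CPM.

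In ECH, Mertk and Itgb5 gave the lowest p-values of the 10 genes against Ct, and Mertk and Axl against HF. No member passed the call of an edgeR FDR under 0.05 with at least a 2-fold change. All genes tested gave 0.356% called for ECH against Ct, 0.377% for HF against Ct and 0% for ECH against HF, and the members called were 0 of 10 in each. At an unadjusted quasi-likelihood p under 0.05, 2 members were higher and 0 lower in ECH than in Ct, where 6.03% of all genes were higher and 5.89% lower. In HF against Ct, 1 member was higher and 0 lower at that threshold, against 7.35% and 8.72% of all genes. In ECH against HF, 2 members were higher and 0 lower, against 5.17% and 2.81% of all genes. Groups that did not overlap were seen for 1 member in ECH against Ct, where 7.97% of all genes did not overlap, for 0 members in HF against Ct (9.04%) and for 1 in ECH against HF (6.92%). By the likelihood ratio test of edgeR and by DESeq2, Mertk was called in both ECH comparisons and no other member in any comparison, and limma-voom called 0 members. The median log2 fold change of the 10 members was 0.17 in ECH against Ct, −0.03 in HF against Ct and 0.17 in ECH against HF, beside 0.01, −0.01 and 0.02 over all genes tested. Where 0% of all genes were called in ECH against HF, DESeq2 called 47 genes and the likelihood ratio test 48.

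**Figure D3:**
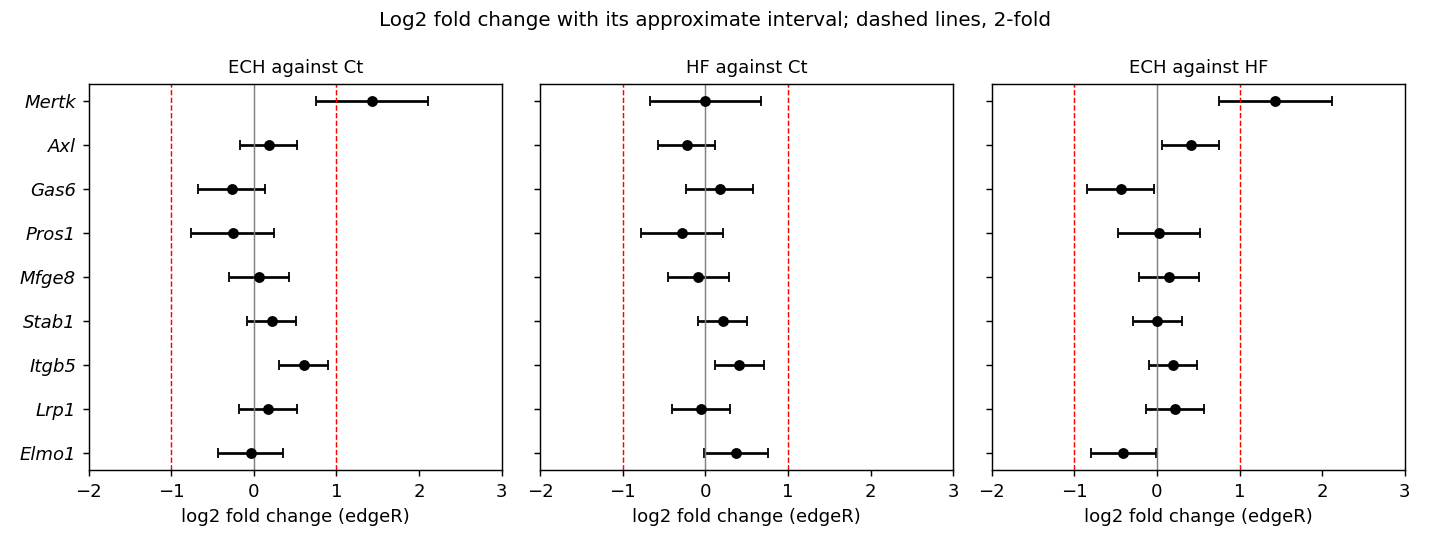
Log2 fold change of 9 of the members in the 3 comparisons, from edgeR, with bars for the approximate 95% interval and dashed lines at a 2-fold change. Tyro3 is left out because its counts are near 0. The bars of Mertk lie above 0 in both ECH comparisons and those of Itgb5 in both comparisons with Ct, and in ECH against HF the bars of Axl lie above 0 and those of Gas6 and Elmo1 below it.

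Upstream windows of 250 bases that end at the annotated start of transcription are given for Mertk and Itgb5, which had the lowest p-values in ECH against Ct, and for Gas6, the ligand that differed from Mertk in direction in ECH mice 3 and 4. They were read from RefSeq in build GRCm38.p6 and run 5′ to 3′ on the strand of the gene, with capitals at each GC box, the letters GGGCGG on either strand.
Mertk (chr2:128698665-128698914, plus strand): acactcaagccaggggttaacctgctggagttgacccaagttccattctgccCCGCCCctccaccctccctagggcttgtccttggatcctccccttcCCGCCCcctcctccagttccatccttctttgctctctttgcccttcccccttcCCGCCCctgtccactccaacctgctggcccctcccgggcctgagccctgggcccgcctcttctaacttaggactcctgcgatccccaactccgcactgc
Itgb5 (chr16:33829415-33829664, plus strand): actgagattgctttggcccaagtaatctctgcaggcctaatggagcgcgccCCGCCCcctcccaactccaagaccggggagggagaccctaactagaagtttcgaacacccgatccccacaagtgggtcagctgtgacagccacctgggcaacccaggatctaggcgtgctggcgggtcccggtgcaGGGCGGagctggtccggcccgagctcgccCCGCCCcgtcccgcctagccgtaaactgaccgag
Gas6 (chr8:13494536-13494785, minus strand): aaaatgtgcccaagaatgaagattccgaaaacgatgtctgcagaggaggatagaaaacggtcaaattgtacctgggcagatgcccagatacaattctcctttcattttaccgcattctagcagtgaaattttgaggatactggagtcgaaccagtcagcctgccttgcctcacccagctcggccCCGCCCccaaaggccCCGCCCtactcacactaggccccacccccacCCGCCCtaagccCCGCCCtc

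The Mertk and Itgb5 windows each held 3 GC boxes and the Gas6 window 4, while 32.7% of the 32851 windows of that length held at least 1. Across all members, 9 of 10 had a GC box in at least 1 window and Stab1 had none. The letters TGACG (the core of the cAMP response element, found in 17.8% of windows) and TGAGTCA (AP-1 site, 4.46%) had no match in the 11 windows of the members on either strand. The MAF core TGCTGA (16.1%) was found in the window of Stab1, and the PU.1 core GAGGAA (23.3%) in those of Axl, Mfge8 and Stab1. None of these motifs overlapped another in the windows shown. These matches describe letters and say nothing of binding.

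Mertk, the TAM receptor known for clearance by resident tissue Mφ, was measured in Ct at 121, 76.0, 95.0 and 177 CPM (mice 1 to 4). In ECH the values were 183, 174, 496 and 414 CPM. In HF they were 108, 125, 91.6 and 144 CPM. All ECH values were above all HF values, and 3 of 4 were above all Ct values, but ECH mice 1 and 2 lay next to Ct mouse 4 and ECH mice 3 and 4 lay far above. The mean of ECH mice 3 and 4 was 455 CPM, 2.55 times the 178 CPM of mice 1 and 2, and 6.13% of the genes tested differed more between these pairs. Mean Mertk in ECH was 2.70 times that in Ct (approximate 95% interval 1.68 to 4.33, edgeR quasi-likelihood p 0.00119, FDR 0.101) and 2.70 times that in HF (1.68 to 4.33, p 0.00119, FDR 0.491). HF and Ct gave a log2 fold change of 0.00 with an SE of 0.34 (edgeR FDR 0.9996). Taken set by set, ECH mice 1 and 2 were 0.59 above Ct on the log2 scale (edgeR FDR 0.947), whereas ECH mice 3 and 4 were 1.95 above HF (edgeR FDR 0.00328). Leaving out ECH mouse 2 brought Mertk past the call against Ct, with a log2 fold change of 1.63. With the set as a covariate, HF was below Ct by a log2 fold change of −1.35 (edgeR FDR 0.117), so both comparisons with Ct moved with the set. The −1.35 compares HF and Ct only through the ECH mice, since no set held both.

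Axl, the TAM receptor linked to inflamed tissue, was at 399, 251, 407 and 386 CPM in Ct, at 334, 448, 471 and 379 CPM in ECH and at 247, 310, 321 and 353 CPM in HF. The 3 groups overlapped, and Ct mouse 2 stood below the other Ct mice. Axl in ECH was 1.33 times that in HF (interval 1.04 to 1.68, edgeR FDR 0.595) and 1.13 times that in Ct (0.89 to 1.44, edgeR FDR 0.743). Neither passed the threshold, and the intervals leave room for a difference of up to 1.68-fold.

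Tyro3, the third TAM receptor, was nearly undetected, with counts of 0, 0, 32 and 30 in Ct, 13, 94, 0 and 52 in ECH and 0, 60, 0 and 0 in HF. It was at 0 in 6 of 12 libraries, where a count of 0 allows a level of up to 3 counts. Its log2 fold changes had SEs of over 2 and are not read further.

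**Figure D4:**
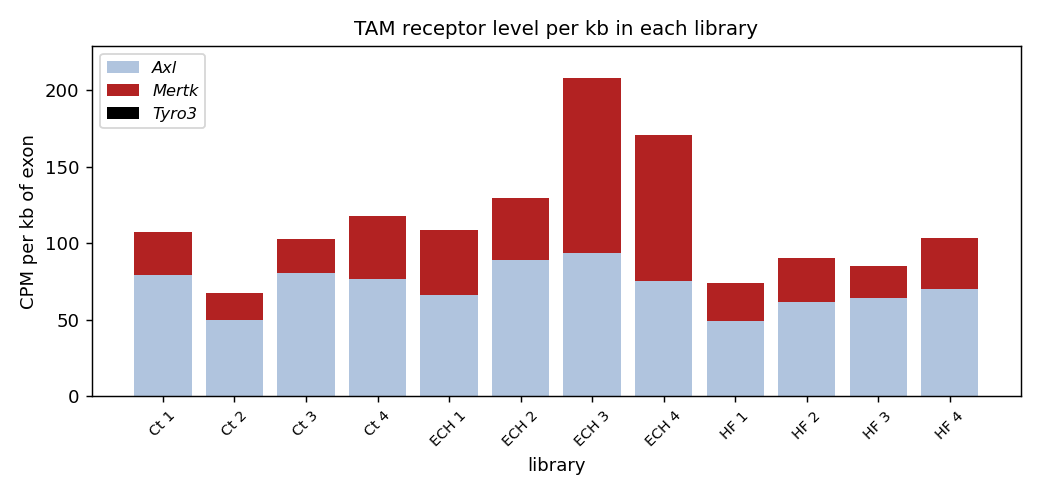
Level of the 3 TAM receptors in each library, in CPM per kb of exon, stacked as Axl, Mertk and Tyro3. Mertk takes the larger part of the bar in ECH mice 3 and 4, and Tyro3 is too low to see.

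Together the TAM receptors were carried by Axl and Mertk. Mertk held 27.0% ± 5.59 of their summed level per kb in Ct, 45.2% ± 12.3 in ECH and 30.6% ± 3.95 in HF. The share ran from 31.0% to 55.9% in ECH, from 21.3% to 34.7% in Ct and from 24.8% to 33.7% in HF, so the groups overlapped at the lower end of ECH. Axl in ECH mice 3 and 4 had a mean of 425 CPM against 391 CPM in mice 1 and 2, a ratio of 1.09, while that of Mertk was 2.55.

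Gas6, the ligand of all TAM receptors, was at 871, 766, 1030 and 951 CPM in Ct, at 1049, 894, 509 and 552 CPM in ECH and at 935, 1031, 1085 and 1027 CPM in HF. ECH mice 1 and 2 lay within or near the Ct range, and ECH mice 3 and 4 lay below every Ct and HF mouse. On the log2 scale, ECH differed from Ct by −0.27 (SE 0.21, edgeR FDR 0.660). From HF it differed by −0.44 (SE 0.21, edgeR FDR 0.633). Within the set that holds HF, ECH mice 3 and 4 against HF gave −0.94 (SE 0.10, edgeR FDR 0.00586), and ECH mice 1 and 2 against Ct gave 0.09 (edgeR FDR 0.977). With the set as a covariate, HF was higher than Ct by a log2 fold change of 1.04 (edgeR FDR 0.0285), a difference of 0.17 (edgeR FDR 0.739) without it. The 1.04 compares HF and Ct only through the ECH mice. It therefore takes in the gap between ECH mice 1 and 2 and ECH mice 3 and 4. In ECH mice 3 and 4, the libraries with the highest Mertk thus had the lowest Gas6. Of the genes tested, 15.2% differed more than Gas6 between ECH mice 1 and 2 and ECH mice 3 and 4. Gas6 shares 34 exon bases with the antisense gene Tmem255b, whose count was at most 95 where Gas6 had at least 56676.

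Pros1, the other TAM ligand, was at 339, 159, 531 and 365 CPM in Ct, at 300, 290, 277 and 299 CPM in ECH and at 256, 309, 285 and 294 CPM in HF. The Ct mice spread widest, from the lowest to the highest value of all 12 libraries, and both infused groups lay within that range. Log2 fold changes from Ct were −0.26 for ECH (edgeR FDR 0.744) and −0.28 for HF (edgeR FDR 0.637). Without Ct mouse 2 and HF mouse 1, the ECH value became −0.51 (edgeR FDR 0.186). Per kb, Gas6 made up 81.4% ± 5.34 of the summed TAM ligands in Ct, 79.4% ± 5.42 in ECH and 85.1% ± 0.718 in HF, and Pros1 the rest.

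Mfge8, which bridges dying cells to αv integrins, was at 76.0, 69.8, 51.2 and 63.7 CPM in Ct, at 78.0, 62.5, 60.8 and 71.1 CPM in ECH and at 77.5, 70.3, 55.0 and 43.3 CPM in HF. The groups overlapped, with means within 1 SD of each other. Its fold change in ECH against Ct was 1.04 (interval 0.81 to 1.34, edgeR FDR 0.931).

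Itgb5, the β5 chain that pairs with the αv chain to receive Mfge8, was at 340, 311, 287 and 427 CPM in Ct. ECH mice were at 528, 503, 614 and 427 CPM, and HF mice at 439, 473, 492 and 411 CPM. All ECH values lay above all Ct values, although the lowest ECH and highest Ct mice differed by less than 1 CPM, and 3 of 4 HF mice lay above every Ct mouse. ECH against Ct gave a fold of 1.52 (interval 1.24 to 1.86, edgeR p 0.00142, FDR 0.107), under the 2-fold threshold. DESeq2 gave an FDR of 0.00689 for it. HF against Ct gave a fold of 1.33 (1.09 to 1.63, edgeR FDR 0.219), and ECH against HF one of 1.14 (0.93 to 1.40, edgeR FDR 0.820). Within the inferred sets, ECH mice 1 and 2 against Ct gave a log2 fold change of 0.59 (edgeR FDR 0.828). Mean Itgb5 was 515 CPM in ECH mice 1 and 2 and 520 CPM in ECH mice 3 and 4.

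Stab1, a scavenger receptor that binds phosphatidylserine, was at 924, 845, 930 and 1307 CPM in Ct, at 1198, 1353, 1101 and 999 CPM in ECH and at 1086, 1145, 1121 and 1283 CPM in HF. The groups overlapped, and Ct mouse 4 was the highest Ct value. The fold was 1.16 in both infused groups against Ct (intervals 0.94 to 1.43 and 0.94 to 1.42, edgeR FDR 0.626 and 0.539). Stab1 shares 112 exon bases with the antisense gene Nt5dc2, which had at most 10878 counts where Stab1 had at least 72679. How reads of the shared bases were counted is not known, because the strand setting of the counting was not stated.

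Lrp1, a receptor for calreticulin on dying cells, was at 311, 340, 378 and 392 CPM in Ct, at 327, 355, 477 and 442 CPM in ECH and at 258, 360, 303 and 452 CPM in HF. The groups overlapped, and the log2 fold changes were 0.17 in ECH against Ct (edgeR FDR 0.761) and −0.05 in HF against Ct (edgeR FDR 0.927).

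Elmo1, the adaptor that passes the signal to Rac, was at 132, 82.1, 171 and 142 CPM in Ct, at 123, 168, 108 and 115 CPM in ECH and at 175, 181, 170 and 157 CPM in HF. The HF mice were the most alike, between 157 and 181 CPM, and 3 of 4 ECH mice lay below all of them. ECH against HF gave a log2 fold change of −0.41 (SE 0.20, edgeR FDR 0.641), and ECH mice 3 and 4 against HF gave −0.61 (edgeR FDR 0.0185), still under a 2-fold change. With the set as a covariate, the difference was again −0.61, at an edgeR FDR of 0.218. Elmo1 shares 403 exon bases with the antisense gene Gm32036. That gene is not among the genes counted, so its part in the counts of Elmo1 cannot be told.

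Among the ECH mice, values of other cell types and of Mφ markers moved in part with Mertk. The fibroblast list was at 90.7 and 469 CPM in ECH mice 3 and 4 and at 238 and 163 CPM in mice 1 and 2, so the highest Mertk came with the lowest fibroblast sum of ECH. The endothelial list was higher in ECH mice 3 and 4, at 107 and 71.6 CPM, than in mice 1 and 2, at 38.4 and 43.9 CPM. The cardiomyocyte list was also higher in mice 3 and 4, at 145 and 161 CPM, than in mice 1 and 2, at 92.9 and 79.7 CPM. The Mφ list was lower in mice 3 and 4, at 27179 and 25975 CPM, than in mice 1 and 2, at 36848 and 33665 CPM. Outside ECH these lists did not follow Mertk in the same way. The cardiomyocyte list was highest in Ct mouse 2, at 239 CPM, where Mertk was at 76.0 CPM. The Mφ list ran from 26741 to 28115 CPM in Ct, next to ECH mice 3 and 4, and the endothelial list was at 70.2 CPM in Ct mouse 1. The part of these levels in the values of Mertk and Gas6 was not tested.

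The genes with the profile most like Mertk over the 12 libraries, by the root mean square difference of centred log2 CPM, were Slc16a14 (0.301), Tlr8 (0.309), Ddi2 (0.344), Ncoa1 (0.345) and Ucp2 (0.361). Among the members, Lrp1 ranked 789 of 14607 other genes in this likeness and Itgb5 832, while Gas6 ranked 9518. Tlr8, a sensor of single-stranded RNA, was at 377 and 277 CPM in ECH mice 3 and 4, against 162 and 170 CPM in mice 1 and 2. Ucp2, a mitochondrial carrier, was at 3856 and 3555 CPM in ECH mice 3 and 4, against 1502 and 1506 CPM in mice 1 and 2. These genes were ranked on the same libraries and their likeness is a description of them.

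Beyond the members, a list of 130 genes of the uptake pathway was read from the same fit, and 126 were tested. In ECH against Ct, 4 were called, where 0.356% of all genes were, and at an unadjusted p under 0.05, 21 were higher and 12 lower (6.03% and 5.89% of all genes). In HF against Ct, 3 were called (0.377% of all genes), and 21 were higher and 10 lower (7.35% and 8.72%). In ECH against HF, 0 were called (0% of all genes), and 6 were higher and 4 lower (5.17% and 2.81%). DESeq2 and the likelihood ratio test also called 0 of them in ECH against HF. Over the pathway genes, log2 fold changes had a median of 0.10, 0.08 and 0.08 in these comparisons.

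**Figure D5:**
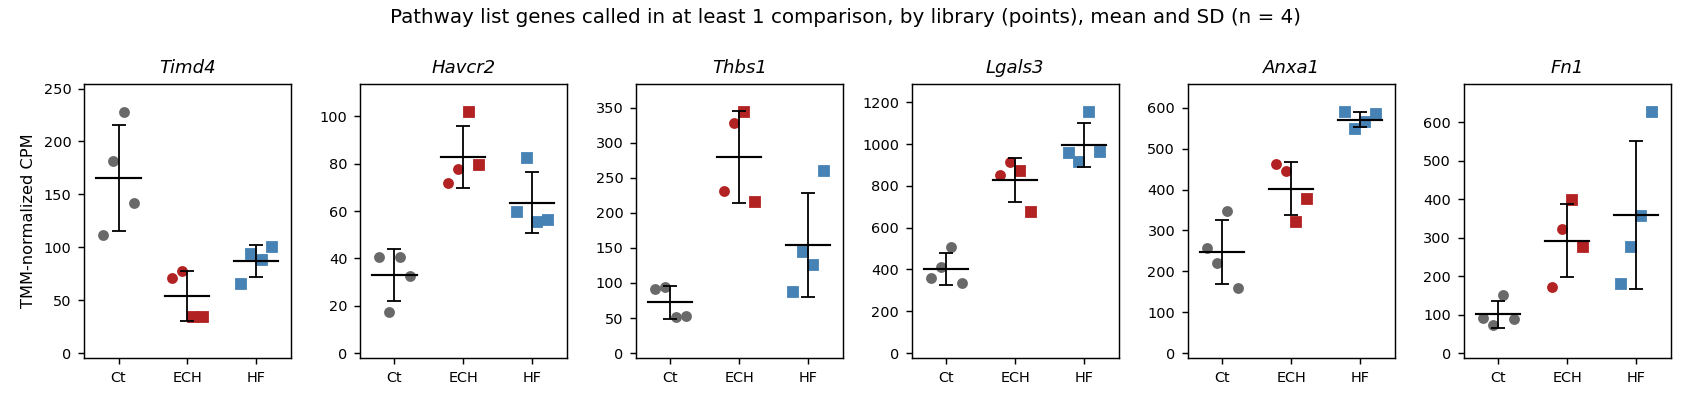
CPM by library of the 6 pathway genes called in at least 1 comparison, with the group mean and SD (n = 4), circles for the set that holds Ct and squares for the set that holds HF. Timd4 is lower in every ECH and HF mouse than in every Ct mouse, and Lgals3 is higher in every ECH and HF mouse.

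Of 21 other recognition receptors tested, 2 were called in ECH against Ct, in opposite directions. Timd4, a phosphatidylserine receptor of resident Mφ, was at 112, 182, 227 and 142 CPM in Ct, at 70.9, 77.3, 33.6 and 34.2 CPM in ECH and at 65.5, 94.0, 88.2 and 100.5 CPM in HF. ECH and HF did not overlap Ct, and ECH mice 3 and 4 had the lowest values. Timd4 fell in ECH against Ct by a log2 fold change of −1.62 (SE 0.30, edgeR FDR 0.0341), while HF against Ct gave −0.93 (edgeR FDR 0.172). The HF value turned to 0.20 (edgeR FDR 0.862) with the set as a covariate, a fit that compares HF and Ct only through the ECH mice. The ECH call was lost with the set as a covariate (−1.16, FDR 0.166), for ECH mice 1 and 2 against Ct (−1.17, FDR 0.741), with only the ECH and Ct mice (FDR 0.111), without Ct mouse 2 and HF mouse 1 together (FDR 0.0737), and without any 1 of the Ct mice, ECH mouse 3 or 4, or HF mouse 2, 3 or 4. The summed level of the resident Mφ list, which holds Timd4, ran from 3675 to 5572 CPM in Ct, from 3705 to 5764 CPM in ECH and from 3464 to 4448 CPM in HF. This sum mixes genes that moved in opposite directions. Folr2 was at 504.5 to 818 CPM in Ct and at 317 to 499 CPM in ECH. Cd163 was at 887 to 1448 CPM in Ct and at 1083 to 2349 CPM in ECH. Lyve1, Cbr2 and Vsig4 overlapped between Ct and ECH, as Cd163 did. Folr2 and Cd163 were picked out after their values were seen.

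Havcr2, which encodes the phosphatidylserine receptor TIM-3, was at 40.5, 17.3, 40.8 and 32.7 CPM in Ct, at 71.7, 77.9, 102 and 79.5 CPM in ECH and at 59.6, 82.5, 55.4 and 56.2 CPM in HF. It rose in ECH against Ct by a log2 fold change of 1.33 (SE 0.24, edgeR FDR 0.0326), and HF against Ct gave 0.95 (edgeR FDR 0.108). Every ECH and HF mouse was above every Ct mouse. The ECH call was lost with the set as a covariate (0.220), for ECH mice 1 and 2 against Ct (0.760), with only the ECH and Ct mice (0.109), and without Ct mouse 1 or 4, ECH mouse 3 or 4, or HF mouse 3 or 4. No recognition receptor was called in the other comparisons.

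Of 13 other bridging molecules and opsonins tested, 2 were called in ECH against Ct and 3 in HF against Ct, all of them higher. Lgals3, which encodes galectin-3, was at 359, 410, 507 and 338 CPM in Ct, at 851, 915, 871 and 677 CPM in ECH and at 957, 912, 1152 and 961 CPM in HF. It rose by 1.04 in ECH (SE 0.15, edgeR FDR 0.0139) and by 1.30 in HF (SE 0.15, edgeR FDR 0.00325) on the log2 scale against Ct, with no overlap. Thbs1, which encodes thrombospondin-1, a bridge to CD36 and αv integrins, was at 91.6, 94.4, 51.8 and 53.0 CPM in Ct and at 232, 329, 343 and 216 CPM in ECH, a rise of 1.94 on the log2 scale (SE 0.32, edgeR FDR 0.0202). In HF it was at 86.8, 144, 126 and 260 CPM, and HF against Ct gave 1.08 (edgeR FDR 0.144). ECH against HF gave 0.86 for Thbs1 (edgeR FDR 0.564). The call of Lgals3 in ECH was lost within 1 set (FDR 0.274), with only the ECH and Ct mice (FDR 0.0746), and without Ct mouse 1, and it fell short of a 2-fold change without Ct mouse 4 (a log2 fold change of 0.96) or ECH mouse 2. In HF, Lgals3 kept an FDR under 0.05 in 21 of 21 alternatives, at a log2 fold change of at least 1.23. The call of Thbs1 in ECH was lost within 1 set (0.197), with the set as a covariate (0.0960), and without Ct mouse 1 or 4 or ECH mouse 3. The summed level of 5 Ly6C-high monocyte markers, most of it from Ccr2 and none of them at 0, had a median of 414 CPM in Ct (291 to 589), 575 in ECH (508 to 687) and 695 in HF (539 to 903). These ranges overlapped, and the part of such cells in Lgals3 was not tested.

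Anxa1, which encodes annexin A1, was at 258, 220, 348 and 160 CPM in Ct and at 589, 548, 565 and 584 CPM in HF. It rose in HF by 1.21 on the log2 scale (SE 0.20, edgeR FDR 0.0228), while ECH against Ct gave 0.71 (edgeR FDR 0.158). Fn1, which encodes fibronectin, was at 90.5, 72.2, 151 and 87.6 CPM in Ct and at 178, 276, 357 and 625 CPM in HF, a rise of 1.84 (SE 0.37, edgeR FDR 0.0467). Fn1 in ECH against Ct gave 1.54 (edgeR FDR 0.0950). In HF, the call of Anxa1 was lost without Ct mouse 2 and HF mouse 1 together (FDR 0.0834), and without Ct mouse 1 or any 1 HF mouse. That of Fn1 was lost with the set as a covariate (FDR 0.319), with only the HF and Ct mice (FDR 0.0747), without Ct mouse 2 and HF mouse 1 together (FDR 0.0615), and when any 1 mouse but Ct mouse 3 or HF mouse 1 was left out. The monocyte sums given beside Lgals3 also had a higher median in HF than in Ct, and their part in Anxa1 was not tested. Fibroblasts also express Fn1, and their marker list was at 29.9 to 195 CPM in Ct, 90.7 to 469 CPM in ECH and 82.4 to 250 CPM in HF, whose part in Fn1 was not tested. Edil3, which encodes a phosphatidylserine-binding integrin ligand, was at 8.01 ± 5.79 CPM in Ct, at 45.6 ± 10.2 in ECH and at 42.4 ± 14.3 in HF (edgeR FDR 0.271 and 0.222 against Ct). Its missing calls turned on Ct mouse 2, at 0 CPM, since without Ct mouse 2 and HF mouse 1 Edil3 passed in ECH (log2 fold change 2.08, edgeR FDR 0.0151) and HF (log2 fold change 2.11, edgeR FDR 0.0175) against Ct, and it also passed in both without Ct mouse 2 alone. Ptx3, a soluble opsonin, was at 0 in every Ct mouse and reached 1.41 CPM in an ECH and 0.974 CPM in an HF mouse (edgeR FDR 0.0820 and 0.0902). Without Ct mouse 2 and HF mouse 1, its edgeR FDR was 0.0247 in ECH and 0.0313 in HF against Ct. Its FDR was also under 0.05 in both without HF mouse 1 alone, by DESeq2 and by the likelihood ratio test, and in no other alternative. C4b, a complement component, was at 502 ± 317 CPM in Ct and 230 ± 93.3 CPM in HF (edgeR FDR 0.203).

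The remaining lists had no called gene, and their counts stand beside 6.03% of all genes higher and 5.89% lower in ECH against Ct and 7.35% and 8.72% in HF against Ct. Of 23 genes listed for the engulfment machinery, 2 were higher and 2 lower at an unadjusted p under 0.05 in ECH against Ct, and again 2 and 2 in HF against Ct. Of 18 phagosome genes, 2 were higher in ECH and 3 in HF against Ct, and none was lower. Of 7 genes of TAM signalling, 1 was lower in each infused group. Of 12 genes listed for the metabolism of cargo, 4 were higher in ECH and 3 in HF against Ct, and none was lower. Of 4 genes listed for receptor shedding, 2 were higher in ECH and 0 in HF, and none was lower. Of 9 receptors for signals released by dying cells, 1 was lower in ECH and 1 higher in HF. Of 8 genes listed for signals that restrain uptake, among them also Calr, whose product calreticulin promotes it, 1 was higher and 1 lower in ECH. The latter was Siglecg, a sialic acid receptor, at 13.8 ± 5.65 CPM in Ct and 4.70 ± 2.74 CPM in ECH (edgeR FDR 0.117). B cells also express Siglecg, and their marker list was at 96.6 to 446 CPM in Ct and 34.3 to 79.8 CPM in ECH, whose part in Siglecg was not tested.

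Of 11 transcriptional regulators, 6 were lower and 1 higher in ECH against Ct at an unadjusted p under 0.05, and 4 and 1 in HF. Klf4, a Krüppel-like factor, was at 499 ± 382 CPM in Ct, at 155 ± 60.9 in ECH and at 149 ± 74.7 in HF (edgeR FDR 0.168 and 0.134). The Ct mean of Klf4 rested in part on Ct mouse 2, at 1068 CPM, beside 270 to 368 CPM in the other Ct mice. Klf2, a related factor, was at 1764 ± 311 CPM in Ct and 875 ± 313 CPM in HF (edgeR FDR 0.130). Ppard, a lipid-sensing nuclear receptor, was at 9.05 CPM in Ct mouse 2 and at 2.07 to 2.40 CPM in the other Ct mice, and at 1.53 ± 0.388 CPM in ECH (edgeR FDR 0.360). Sgk1 (log2 fold change 0.97, edgeR FDR 0.0202), Soat1 (0.89, FDR 0.0359) and Nr3c1 (−0.59, FDR 0.0443) passed the FDR threshold in ECH against Ct below a 2-fold change, and these 3 were picked out after their values were seen.

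Shedding enzymes were also read, because ADAM proteases cut Mertk from the cell surface. Adam10 was at 160, 190, 303 and 252 CPM in ECH and at 117, 162, 177 and 164 CPM in HF, and ECH against HF gave a log2 fold change of 0.55 (SE 0.23, edgeR FDR 0.595). Adam9 was at 364, 299, 514 and 427 CPM in ECH and at 271, 312, 240 and 277 CPM in HF, and gave 0.55 (SE 0.23, edgeR FDR 0.595). Against Ct, ECH gave 0.98 for Adam9 (SE 0.23, edgeR FDR 0.0914), with all 4 ECH mice above every Ct mouse, and 0.59 for Adam10 (SE 0.23, edgeR FDR 0.331). Both had their highest values in ECH mice 3 and 4, as Mertk did. Within the set that holds HF, ECH against HF gave 0.84 for Adam10 (edgeR FDR 0.0337) and 0.77 for Adam9 (edgeR FDR 0.0183), both under a 2-fold change. With the set as a covariate, neither passed (edgeR FDR 0.0804 for Adam10 and 0.128 for Adam9). Adam17, a protease known to shed Mertk, gave 0.02 in ECH against HF (SE 0.21, edgeR FDR 0.998) and 0.14 in ECH against Ct (SE 0.21, edgeR FDR 0.843). Adam17 and Timp3, the inhibitor in this list, are named outside the rule, after their values were seen, and Timp3 gave 1.08 in ECH against HF (SE 0.62, edgeR FDR 0.707). Of the other genes named in ECH against HF, Ucp2 gave 0.85 (edgeR FDR 0.551), Anxa1 −0.51 (FDR 0.572), Anxa5, an annexin that covers phosphatidylserine, −0.40 (FDR 0.595), Timd4 −0.69 (FDR 0.595) and P2ry12, a nucleotide receptor, −0.27 (FDR 0.623). For ECH mice 3 and 4 against HF these values became 1.35 for Ucp2 (FDR 0.00393), −0.71 for Anxa1 (FDR 0.0133), −0.76 for Anxa5 (FDR 0.0140), −1.36 for Timd4 (FDR 0.0102) and −0.36 for P2ry12 (FDR 0.117). With the set as a covariate, Ucp2, Anxa5 and Timd4 kept an edgeR FDR under 0.05 and Anxa1 did not (FDR 0.138).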

How the data were processed

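Raw counts per gene were taken as deposited by the authors, 1 file per mouse, made per the labels with FastQC, Trimmomatic, TopHat2 (mm10) and featureCounts (no versions given) from SMART-Seq v4 libraries. The paper speaks of counting aligned reads. Neither it nor the labels states whether the reads of a pair were counted as a single fragment, or on which strand. Counts were scaled by TMM, filtered with filterByExpr (14608 of 24445 genes kept) and tested with the quasi-likelihood test of edgeR 4.0.16 in R 4.3.3, with all 12 libraries in 1 model and Benjamini-Hochberg adjustment across the 14608 genes (FDR). Calls needed an FDR under 0.05 with at least a 2-fold change. Approximate 95% intervals are the log2 fold change ± 1.96 SE. Intervals cover the spread between mice, and floors (3 counts) counting error only. In every library more genes held 2 counts than 1 or 3, so both reads of a pair may have been counted, and a floor in fragments could then differ. The overall biological coefficient of variation was 60.8%. CPM per kb used the exons of GENCODE M21. Members and lists were chosen with earlier results of these data known. Named were all members, the pathway genes called, up to 4 with the highest and up to 4 with the lowest log2 fold change among those at an unadjusted p under 0.05 per comparison, and the 5 genes nearest to Mertk. Alternatives were DESeq2 1.42.0, limma 3.58.1 (voom with quality weights), the likelihood ratio test, RLE scaling, no filter, only the groups compared, a replicate block, the inferred sets and leaving out libraries. The code was tested on simulated data. No 2 libraries held identical counts. Protein sequences were not used here.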

Additional observations from a re-analysis of the deposited data

Results flagged for a closer look

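In groups of 4 mice, a value was marked where its gap to the nearest other mouse took an unusually large part of the group's range. Of 84 groups, from 28 genes in 3 groups, 4 were marked, and chance marks about 1 in 20. Axl in Ct mouse 2 was at 251.1 CPM, with the other Ct mice between 386.4 and 406.6 CPM. Edil3 in Ct mouse 2 was at 0 CPM, with the others between 8.735 and 13.82 CPM. Ppard in Ct mouse 2 was at 9.048 CPM, with the others between 2.069 and 2.399 CPM. Tyro3 in HF mouse 2 was at 0.5537 CPM, with the others at 0. Of these values, 3 came from Ct mouse 2, which also had the fewest detected genes in Ct and the highest neutrophil and B cell marker sums (1457 and 446 CPM), whose part in them was not tested.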

How the results depend on the processing

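Which genes passed the call depended on the test and on the inferred library sets, and the cause was not tested. Members called against Ct in ECH were 1 by DESeq2, 1 by the likelihood ratio test and 0 to 1 when each mouse was left out (1 without ECH mouse 2). In HF against Ct, 1 was called (Gas6) with the set as a covariate, a fit that compares HF and Ct only through the ECH mice. In ECH against HF, 1 was called (Mertk) by DESeq2, by the likelihood ratio test, with the set as a covariate and libraries of 1 set only. Pathway genes called in ECH against Ct were 8 by DESeq2, 9 by the likelihood ratio test, 1 with only these groups, with the replicate block or with the covariate, 0 within 1 set, and 0 to 6 when each mouse was left out. In HF against Ct they were 7, 7 and, with the covariate, 6, with the block 1, and 1 to 4 when each mouse was left out. In ECH against HF they were 4 with the covariate and 4 within 1 set. In ECH against Ct, the count of 4 went to 0 without Ct mouse 1 or 4, to 1 without ECH mouse 3 and to 2 without HF mouse 3 or 4, and in HF against Ct the count of 3 went to 1 without Ct mouse 1 or HF mouse 2, 3 or 4.

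Over all genes, calls ran from 52 to 248 (DESeq2) and 1 (1 set) in ECH against Ct, from 55 to 333 (DESeq2), 273 (likelihood ratio) and 208 (covariate) in HF against Ct, and from 0 to 47 (DESeq2), 48 (likelihood ratio), 272 (covariate) and 370 (1 set) in ECH against HF. The block gave 22, 18 and 0. Of the pathway genes, the block left only Lgals3 called in both comparisons with Ct, so the calls of Timd4, Havcr2, Thbs1, Anxa1 and Fn1 were not made there. Same-numbered mice did not deviate together (correlations −0.07 to 0.07), so the numbers do not pair them. Other counts were 218 (likelihood ratio) and 8 (only these groups) in ECH against Ct.

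Some log2 fold changes turned in sign, none of a gene called in that comparison. With the covariate and within 1 set, ECH against Ct gave 0.10 and 0.094 for Gas6, −0.059 and −0.067 for Lrp1 and 0.14 and 0.13 for Elmo1, and ECH against HF −0.14 and −0.14 for Stab1. With the covariate, HF against Ct gave 1.06 for Tyro3, 0.0076 for Mfge8 and 0.20 for Timd4. Mertk in HF against Ct was 0.0013 without the filter, 0.0050 with only these groups and 0.068 with the replicate block. Lrp1 in HF against Ct was 0.017 with limma-voom and 0.038 without Ct mouse 2 and HF mouse 1, and Pros1 in ECH against HF −0.0071 and −0.026. Stab1 in ECH against HF was also −0.0011 with RLE, −0.0011 with DESeq2, −0.0020 without the filter and −0.028 without those mice. Leaving out each mouse, the ranges were −0.50 to 0.021 (Pros1), −0.036 to 0.15 (Mfge8) and −0.21 to 0.11 (Elmo1) in ECH against Ct, −0.16 to 0.27 (Mertk), −7.01 to 0.51 (Tyro3), −0.21 to 0.052 (Mfge8) and −0.21 to 0.066 (Lrp1) in HF against Ct, and −0.023 to 0.065 (Pros1) and −0.075 to 0.072 (Stab1) in ECH against HF.

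Each library held at least 88466559 counts, of which Tyro3 took 0 to 94, and whether depth limited the values of genes near 0 was not tested.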
